A study of Mus musculus with 43 samples.

Results

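H3R2me2a, the asymmetric dimethylation of arginine 2 on histone H3, was profiled by CUT&Tag in WT C57BL/6J mouse testis at P7 and at P14, with 2 peak lists at each age, and all 4 lists were taken by their mark, age and genotype from the 43 samples of the series. CUT&Tag lets an antibody guide a transposase to the marked chromatin, and the cut fragments are sequenced and gathered into peaks. The lists held 18821 and 20891 peaks at P7 and 47975 and 55908 peaks at P14 (replicates 1 and 2). The cells came from testicular tubules that were freed of interstitial cells, dissociated and passed through a strainer that holds back Sertoli cells, so they were enriched germ cells rather than sorted ones. The sample titles give spermatogonia at both ages, whereas the cell type field gives spermatogonia at P7 and spermatocytes at P14. The labels do not say whether replicates came from separate animals, so the spread between the lists of an age may be technical. Age, the change in cell types that comes with it and the sequencing depth of the lists cannot be told apart.

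H3R2me2a is written mainly by Prmt6, a type I arginine methyltransferase of the nucleus. Methylation of H3 arginine 2 is known to hinder Wdr5 and the MLL complexes, which deposit the trimethylation of lysine 4 (H3K4me3) at active promoters, and the mark has therefore been studied as a counterpart of H3K4me3. In the first wave of spermatogenesis, the germ cells of the P7 testis are spermatogonia, which self-renew or differentiate, and by P14 many have entered meiosis and reached the spermatocyte stages. The comparison of both ages asks where the mark lies before and after meiotic entry.

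Sequences around chosen peak summits give examples of the DNA that the results below turn on. Each is 300 bases of mm10 (GRCm38) centered on the summit of the strongest promoter peak, written 5′ to 3′ on the strand of the gene, with CpG dinucleotides in capitals. Prdm9 (chr17:15564026-15564325), the histone methyltransferase that places meiotic recombination hotspots, and Mcm4 (chr16:15637551-15637850), a subunit of the replicative helicase, were marked in all 4 lists:
Prdm9: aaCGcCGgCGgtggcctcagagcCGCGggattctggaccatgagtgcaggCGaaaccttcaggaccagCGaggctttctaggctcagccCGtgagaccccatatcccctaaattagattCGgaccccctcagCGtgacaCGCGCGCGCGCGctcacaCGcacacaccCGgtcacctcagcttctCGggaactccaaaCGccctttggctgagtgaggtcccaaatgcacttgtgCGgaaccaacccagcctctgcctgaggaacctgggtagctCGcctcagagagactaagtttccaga
Mcm4: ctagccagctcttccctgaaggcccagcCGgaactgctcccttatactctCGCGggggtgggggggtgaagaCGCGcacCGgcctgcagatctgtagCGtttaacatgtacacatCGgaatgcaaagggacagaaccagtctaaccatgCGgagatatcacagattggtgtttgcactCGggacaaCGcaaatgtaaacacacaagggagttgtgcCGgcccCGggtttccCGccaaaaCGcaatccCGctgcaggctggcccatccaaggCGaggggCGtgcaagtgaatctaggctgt
Cse1l (chr2:166906019-166906318), a nuclear export factor, and Sycp1 (chr3:102935495-102935794), which builds the transverse filaments of the synaptonemal complex, were marked in both P14 lists and in neither P7 list:
Cse1l: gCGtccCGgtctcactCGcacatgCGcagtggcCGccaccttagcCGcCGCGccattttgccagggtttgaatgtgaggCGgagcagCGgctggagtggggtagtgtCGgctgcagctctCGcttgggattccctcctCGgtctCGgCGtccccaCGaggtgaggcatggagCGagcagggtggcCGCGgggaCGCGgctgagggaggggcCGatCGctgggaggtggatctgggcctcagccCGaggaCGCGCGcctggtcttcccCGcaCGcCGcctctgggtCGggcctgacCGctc
Sycp1: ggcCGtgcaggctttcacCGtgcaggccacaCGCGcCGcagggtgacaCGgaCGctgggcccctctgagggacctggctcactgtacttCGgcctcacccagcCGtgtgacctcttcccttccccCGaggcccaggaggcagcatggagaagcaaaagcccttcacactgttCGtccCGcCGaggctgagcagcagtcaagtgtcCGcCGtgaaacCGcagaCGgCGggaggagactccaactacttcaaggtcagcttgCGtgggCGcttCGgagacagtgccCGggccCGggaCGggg
Glt8d2 (chr10:82670269-82670568) and Fcrla (chr1:170928213-170928512) were marked in both P7 lists and in neither P14 list:
Glt8d2: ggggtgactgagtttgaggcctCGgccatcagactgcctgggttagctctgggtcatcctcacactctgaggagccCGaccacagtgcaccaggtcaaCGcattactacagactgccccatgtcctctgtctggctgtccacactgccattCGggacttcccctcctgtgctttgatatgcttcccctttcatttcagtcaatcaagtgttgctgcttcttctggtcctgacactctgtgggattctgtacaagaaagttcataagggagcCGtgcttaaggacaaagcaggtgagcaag
Fcrla: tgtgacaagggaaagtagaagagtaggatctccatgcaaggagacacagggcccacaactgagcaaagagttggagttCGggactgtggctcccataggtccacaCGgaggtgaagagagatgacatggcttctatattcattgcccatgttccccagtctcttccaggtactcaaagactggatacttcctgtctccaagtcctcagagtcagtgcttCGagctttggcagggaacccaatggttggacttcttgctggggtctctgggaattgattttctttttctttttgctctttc
Plcb4 (chr2:135988517-135988816), a phospholipase gene, carried a strong peak at an internal start site in all 4 lists, in a stretch that every other mark of the series also held:
Plcb4: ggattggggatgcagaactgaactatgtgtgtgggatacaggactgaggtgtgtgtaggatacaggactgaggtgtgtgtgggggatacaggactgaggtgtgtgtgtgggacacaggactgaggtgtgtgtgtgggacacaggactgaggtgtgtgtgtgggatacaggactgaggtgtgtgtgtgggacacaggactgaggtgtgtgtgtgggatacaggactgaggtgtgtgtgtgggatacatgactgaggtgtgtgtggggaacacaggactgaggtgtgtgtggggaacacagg
The windows of the P14 promoters were dense in CpG, with 22 CpG in Prdm9, 18 in Mcm4, 32 in Cse1l and 24 in Sycp1. The window of Glt8d2, which lay inside the gene and away from its annotated 5′ end, held 5, and that of Fcrla 3. Neither promoter carried H3K4me3, which 62.5% of protein-coding promoters marked only in both P7 lists did. With peaks merged over the lists, the median promoter window held 4 CpG if seen in both P7 lists only. It held 20 if seen in both P14 lists only. The Plcb4 window held 0 CpG, consisted of a short tandem unit, and was repeat-masked over 76.7% of its length.

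More peaks were listed at P14 than at P7, in both replicates. The mean number was 19856 at P7 and 51942 at P14, a ratio of 2.62, and the lists of both ages did not overlap in length (exact permutation test of the age labels, two-sided, p = 0.3333, the smallest that 2 against 2 lists allow). Together the peaks of a list covered 5.75 and 6.27 Mb at P7 and 17.9 and 21.02 Mb at P14. The background against which a peak was scored was also higher at P14. It was recovered from the fold and p of each peak, and its most frequent value was 2.17 and 1.93 fragments per position at P7 and 2.77 and 3.10 at P14, a ratio of 1.43. The median peak rested on 11 and 10 fragments at P7 and on 14 and 15 at P14, while its median fold enrichment over the local background was 2.96 and 3.04 at P7 and 2.92 and 2.86 at P14. A deeper library passes the same p at a smaller fold, and the part that depth played in the larger number of peaks was not tested. Counting only peaks with a fold enrichment of at least 4 left 965 and 1136 peaks at P7 and 3696 and 3595 at P14, and counting peaks with a q of at most 0.01 left 1695 and 1433 at P7 and 15337 and 19516 at P14.

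**Figure D1:**
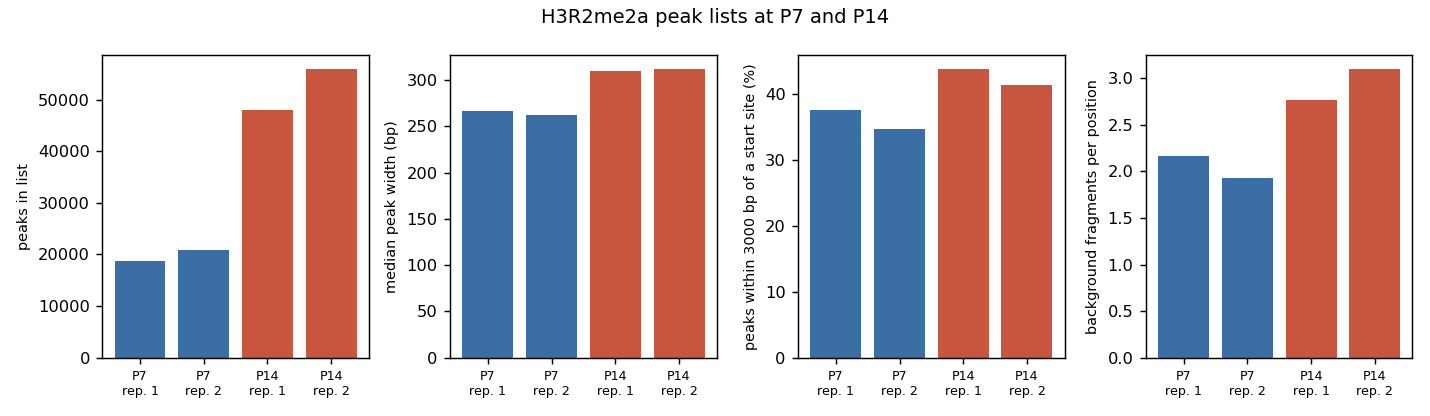
Number of peaks, median peak width (bp), share of peaks within 3000 bp of a start site (%) and recovered background (fragments per position) of the 4 H3R2me2a lists, 1 bar per list, P7 in blue and P14 in red. In each panel both P14 bars stand above both P7 bars, the background included, from 1.93 and 2.17 fragments at P7 to 2.77 and 3.10 at P14.

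Other marks were counted in the same way to see whether the age difference was larger for H3R2me2a. On the log2 scale, the P14 to P7 difference in peak number was larger for H3R2me2a than for H3R8me2a by 0.35 (exact permutation of the mark labels within each age, two-sided, p = 0.4444), than for H3K27ac by 0.52 (exact p = 0.05556, the smallest the design allows) and than for H3K4me3 by 0.91 (exact p = 0.2778). With Benjamini-Hochberg adjustment over these 3 comparisons the exact tests gave adjusted p of 0.4444, 0.1667 and 0.4167, so none of the differences passed. The H3K4me3 lists were called at a q of 0.05 and the others at a p of 0.005. The background difference went the same way, by 0.43, 0.36 and 0.29 against H3R8me2a, H3K27ac and H3K4me3. With a q of at most 0.01 in both marks the log2 differences in peak number were 1.77, 1.63 and 3.00 against these 3 marks. Marks on histone H4 had a P14 to P7 ratio of 2.35 for H4R3me2a, near the 2.62 of H3R2me2a, of 1.32 for H4R3me1 and of 0.885 for H4R3me2s, and their differences from H3R2me2a were not tested.

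Peaks were wider at P14. The median width was 267 and 262 bp at P7 and 310 and 312 bp at P14, 46.5 bp more on average (exact permutation test, p = 0.3333). Peaks of at least 1000 bp numbered 79 and 90 at P7 and 880 and 1083 at P14, and peaks at the minimum width of 200 bp made up 21.6% and 24.8% of the P7 lists and 12.4% and 11.8% of the P14 lists. Among the 18692 best peaks of each list, which sets the lists to equal length, the mean of the medians was 263 bp at P7 and 391 bp at P14. Wide peaks were also the reproducible ones at both ages. At P7, 97.1% and 95.1% of peaks of at least 1000 bp were found in the other replicate, and at P14 99.1% and 95.9%. At P14, 73.5% and 72.7% of these wide peaks lay at promoters, against 33.3% and 32.1% of the few wide peaks at P7.

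The widest P14 promoter peaks in both lists belonged to a few protein-coding genes. That of Gm21738 spanned 2691 and 2703 bp (chromosome 14, 19416802 to 19419504 in replicate 2), was 2666 and 974 bp wide at P7, and lay in a region that every mark held. The peak of Cdk6, a G1 cyclin-dependent kinase, was 2352 and 3529 bp wide at P14 and 394 and 369 bp at P7. The peak shared by Pdcd10 and Serpini1 was 1713 and 1640 bp wide at P14 and 354 and 624 bp at P7, and also lay in such a region. Fzd1, a Wnt receptor, had a P14 peak of 1583 and 2013 bp and was found in only 1 P7 list, at 429 bp. At Arhgap26 the width was 1578 and 1780 bp at P14 and 259 and 216 bp at P7. All 5 promoters also carried H3K4me3 and H3K27ac at P14, as did most promoters with the mark. Those of Gm21738 and Pdcd10 lay in regions that are defined by holding these marks too. Of protein-coding promoters marked in all 4 lists, 93.7% carried H3K4me3 and 80.7% H3K27ac at P14. For those in 1 P7 list and both P14 lists the shares were 90.6% and 73.6%.

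At P14 a larger share of the peaks lay at promoters, that is, with the summit within 3000 bp of a transcription start site. The share was 37.6% and 34.7% at P7 and 43.8% and 41.4% at P14, 6.47 percentage points more on average (exact permutation test, p = 0.3333), where 15.1% of the genome lies in such windows. The share in introns was 32.6% and 34.2% at P7 and 27.6% and 28.7% at P14, that in exons 3.58% and 3.42% at P7 and 3.94% and 3.98% at P14, and the intergenic share 26.3% and 27.7% at P7 and 24.7% and 26.0% at P14. Promoters and exons were thus over their share of the genome at both ages (2.07% for exons), introns near it at P7 and below it at P14 (32.4%), and intergenic DNA below it at both (50.4%). At equal list length the promoter share was 36.3% at P7 and 56.3% at P14, and among peaks with a fold enrichment of at least 4 it was 35.3% and 72.3%. The difference between ages was larger in both of these comparisons than over full lists.

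Around start sites, summits gathered just downstream. In the 200 bp after the start site lay 7.09% and 5.63% of all peaks at P7 and 11.7% and 10.7% at P14, and in the 200 bp before it 3.63% and 3.12% at P7 and 5.12% and 4.67% at P14. The median summit of promoter peaks was 93.5 and 103 bp downstream at P7 and 97 and 98 bp at P14, and the ages overlapped in this place. The corresponding medians were 129 and 130 bp for H3K4me3 at P7 and 111 and 112 bp at P14. H3R2me2a summits were more scattered than those of H3K4me3. Within 500 bp of the start site lay 47.7% and 44.7% of H3R2me2a promoter peaks at P7 and 60.5% and 59.0% at P14, against 85.1% and 85.4% of H3K4me3 promoter peaks at P7 and 82.1% and 82.2% at P14.

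**Figure D2:**
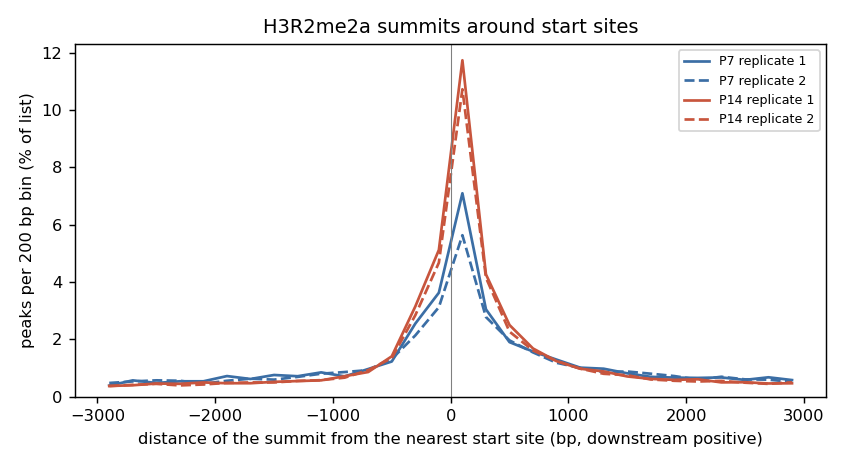
Share of all peaks of a list (%, y axis) whose summit falls in each 200 bp bin around the nearest transcription start site (bp, x axis, downstream positive), 1 line per list, P7 in blue and P14 in red, replicate 1 solid and replicate 2 dashed. All 4 lines peak in the first bin downstream, at 5.63% and 7.09% for P7 and 10.7% and 11.7% for P14, and at 700 bp downstream they stand between 1.55% and 1.68%.

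The X chromosome held a smaller share of the peaks than of the length at both ages. Of the peaks on autosomes and X, X held 92 and 125 peaks at P7, or 0.493% and 0.603%, and 373 and 538 at P14, or 0.781% and 0.966%, whereas X makes up 6.49% of that length. Peaks per Mb on X were 0.538 and 0.731 at P7 and 2.18 and 3.15 at P14. Among autosomes, chromosome 11 was the densest in each list, at 10.5 and 10.8 and then 27.2 and 31.0. Chromosome 3 was the sparsest autosome in each list, at 5.77 and 6.67 and then 14.85 and 17.5. The mean X share was 0.325 percentage points higher at P14 (exact permutation test, p = 0.3333), but the direction turned for strong peaks. With a q of at most 0.01 the X share was 1.39% and 1.499% at P7 (22 and 20 peaks) and 0.817% and 0.883% at P14 (124 and 171 peaks), and 5 of the X peaks in each list lay in regions that every mark held. Of 948 protein-coding genes on X, 5 were marked in all 4 lists and 94 in both P14 lists only, 9.92% against 22.0% of autosomal genes for the latter. H3K4me3 stood at 48.8% of X promoters at P7 and 53.2% at P14, against 61.7% and 64.0% on autosomes, while both P14 lists of H3R2me2a held 14.0% of X and 53.4% of autosomal promoters. H3K27ac stood at 13.0% of X and 32.0% of autosomal promoters at P7 and at 37.0% and 49.8% at P14. A low X share of peaks was also seen in other arginine marks, with means of 0.786% and 0.846% for H3R8me2a, 0.631% and 0.680% for H4R3me2a, 0.618% and 0.458% for H4R3me1 and 1.32% and 0.811% for H4R3me2s at P7 and P14. The 5 X genes marked throughout were Asmt, in a region held by every mark, Flna, Mid1, Rab33a and Wdr45. At Flna the peaks of the lists lay at different places of the gene, since the count is per gene and does not ask for the same peak. Wdr45, an autophagy gene, was the strongest X promoter marked throughout outside those regions, at a fold enrichment of 4.73 and 4.67 at P7 and 7.70 and 6.10 at P14. Phka2, a subunit of phosphorylase kinase, led the X promoters marked only at P14, at 5.31 and 5.12.

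The P14 replicates shared more of their peaks than the P7 replicates did. At P7, 17.0% of the peaks of replicate 1 and 15.3% of those of replicate 2 overlapped a peak of the other by at least 1 bp. At P14 it was 44.4% and 38.1%. Peaks of the P7 lists were found more often in the longer P14 lists than in the other P7 list, 35.8% and 38.1% of replicate 1 and 32.2% and 34.1% of replicate 2, while of the P14 peaks only 12.5% to 13.8% were found in a given P7 list. With each list set to its 18692 best peaks, the shared part was 16.1% at P7 and 44.9% at P14, so the gap also stood at equal list length. The part of depth in it was not tested. There is 1 pair of replicates per age, and this difference has no test.

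Recurrence followed peak strength at both ages. With each list split by p into 5 equal classes, in the strongest class 35.8% and 33.6% of the P7 peaks and 79.2% and 74.3% of the P14 peaks were found in the other replicate, and in the weakest class 9.63% and 6.72% at P7 and 24.0% and 16.3% at P14. Promoter peaks recurred more often than others, at 19.5% and 18.9% against 15.5% and 13.4% at P7, and at 59.0% and 53.5% against 33.0% and 27.2% at P14. Of the strongest class of P7 peaks, 50.5% and 44.8% overlapped peaks of both P14 lists. For the 1000 best peaks of each list, 42.2% were shared at P7 and 53.8% at P14, the closest the ages came.

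**Figure D3:**
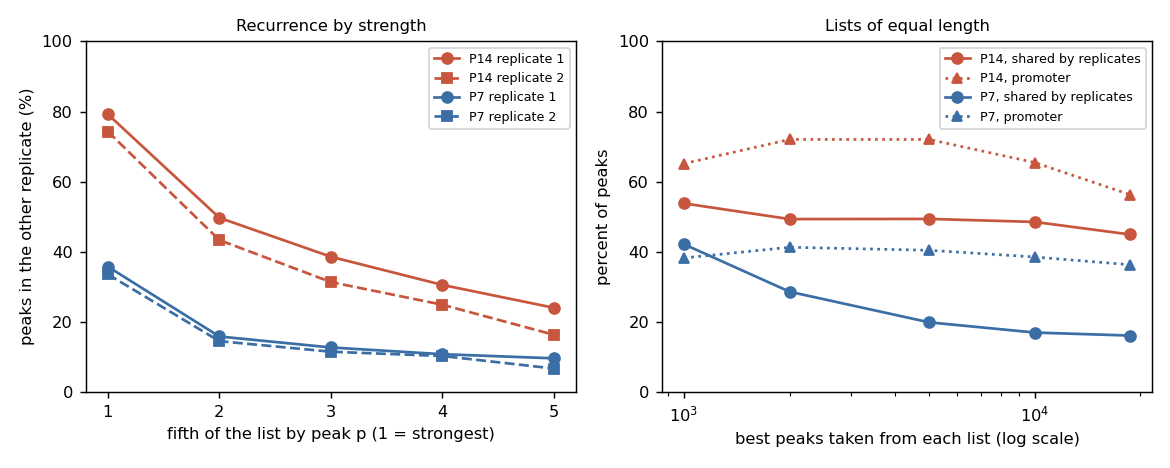
Left, share of peaks found in the other replicate of the same age (%) by class of peak p, each list split into 5 equal classes with 1 the strongest, with P7 in blue and P14 in red. Right, share of peaks shared by replicates (solid) and at promoters (dotted) when the best 1000 to 18692 peaks of each list are taken (log axis), where the promoter share stays between 36.3% and 41.3% at P7 and between 56.3% and 72.1% at P14.

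Merging overlapping peaks of the 4 lists gave 102455 regions, most of them held by a single list. In all 4 lists lay 2460 regions, in both P14 lists and no P7 list 12578 regions, in both P7 lists and no P14 list 450 regions, and in 1 P7 list and both P14 lists 5555 regions. Promoters held 57.5% of the regions seen only at P14, 50.9% of those seen throughout and 28.2% of those seen only at P7. The regions were not alike in sequence. In the 300 bp around the summit, promoter regions seen only at P14 had a median GC content of 62.7% and a CpG observed to expected ratio of 0.702, those seen throughout 62.5% and 0.687, and those seen only at P7 50.3% and 0.221. Windows of the same length placed every 20000 bp over the genome gave 41.3% and 0.148. The summits of promoter regions lay within 500 bp of the start site in 71.1% of regions seen throughout, 72.7% of those seen only at P14 and 25.2% of those seen only at P7.

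Away from promoters, regions seen throughout were rich in repeats. Of the intergenic and intronic regions held by all 4 lists, 46.8% and 46.4% were repeat-masked over at least 50% of the window, compared with 19.07% and 17.8% of such regions seen only at P14 and 29.5% of the genome windows. Of all 2460 regions seen throughout, promoters included, 352 (14.3%) were held by every other mark of the series at both ages, 156 of them at promoters, with a mean repeat content of 41.6% against 26.8% in the others, and 17 of the 12578 regions seen only at P14 were so held. Counts of regions and genes include these regions unless stated, and without them the numbers of genes below changed to 2618 kept, 6875 gained and 105 lost of all annotated genes.

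A gene was counted as marked at an age when both lists held a summit within 3000 bp of one of its start sites. A gene marked at both ages was called kept, a gene marked at P14 and absent from both P7 lists gained, and a gene marked at P7 and absent from both P14 lists lost. Of 55413 annotated genes, 3219 were marked at P7 and 15546 at P14. Kept were 2829 genes (5.11% of those annotated), gained 6875 (12.4%) and lost 103 (0.186%). Of 21938 protein-coding genes, 2189 were kept (9.98%), 4676 gained (21.3%) and 40 lost (0.182%), and a further 4379 were in 1 P7 list and both P14 lists. Of the 2397 protein-coding genes marked at P7, 91.3% were marked at P14 too, and the kept genes were 19.5% of the 11244 marked at P14. At equal list length, 3138 of all genes were gained, 1987 kept and 429 lost, and 96.8% of the genes gained there were also gained with full lists. With a q of at most 0.01, 7034 genes were gained, but 39.96% of them were gained with full lists too, the others holding a weaker peak in at least 1 full P7 list. Absence from a P7 list is absence of a called peak at that depth, not absence of the mark. The fold enrichments and widths given for a gene are those of its strongest promoter peak in each list. These peaks can lie at different places of the gene.

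At kept promoters outside the regions held by every mark (2031 protein-coding genes), the strongest promoter peak of each list was compared. It was not always the same peak, as at Clpx, where P14 replicate 1 held it at another start site. The P14 lists held more peaks, so the strongest was picked from more candidates there. The part of this choice in the differences below was not tested. The strongest peak was wider in both P14 lists than in either P7 list at 1225 genes (60.3%) and narrower at 52 (2.56%). Its median width was 279 and 277 bp at P7 and 533 and 549 bp at P14. The median fold enrichment was 3.11 and 3.09 at P7 and 3.65 and 3.58 at P14, higher in both P14 lists at 987 genes (48.6%) and lower in both at 142 (6.99%). Peaks of gained genes outside these regions had a lower median fold enrichment at P14, of 3.23 and 3.195, and a smaller median width, of 388 and 404 bp. Peaks of lost genes had a median fold enrichment of 2.72 and 2.90 at P7.

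The strongest kept promoters lay in regions held by every mark. By the lower of their fold enrichments they were Aida with Brox (13.0 and 13.6 at P7, 12.4 and 13.4 at P14), Asmt (13.7, 11.9, 11.95 and 14.9 in the same order), Zc3h7a (11.5, 13.4, 13.5 and 13.2), Plcb4 (9.40, 9.47, 11.6 and 10.2), Miga1 (7.86, 6.94, 10.4 and 8.21), Phf21a (7.20, 8.86, 7.17 and 6.34), Slc45a1 (5.50, 5.30, 6.19 and 5.84) and Pdcd10 with Serpini1 (5.49, 5.10, 7.57 and 6.14). Outside such regions, a choice made after these values were seen, the strongest were Rnf165, Wdr45, Slc26a6 with Tmem89, Clpx, Trappc13 with Trim23, Pstk, Myo9a with Senp8 and Ints10. Ints10, a subunit of the Integrator complex, stood at 4.10 and 5.37 at P7 and 6.10 and 5.12 at P14, in a peak of 227 and 294 bp that measured 649 and 854 bp at P14. Pstk, which serves selenocysteine synthesis, stood at 4.42 and 4.24 and then 4.29 and 4.88.

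Of the strongest gained promoters, that of Cse1l had a fold enrichment of 6.66 and 7.26 at P14 (chromosome 2, 166905811 to 166906345 in replicate 2), Zfp868, a zinc finger gene, 7.41 and 5.86, and Armc1 5.78 and 6.52. Gmpr2, a purine salvage enzyme that shares its peak with the ubiquitin-like Nedd8, had 5.84 and 5.68. Focad had 6.31 and 5.61. Abce1, a ribosome recycling factor that shares its peak with Anapc10, a subunit of the anaphase-promoting complex, had 5.57 and 5.61, the same as Nek1, a kinase of the DNA damage response. Rnf121 with Xndc1 and Xntrpc had 5.53 and 5.58. All 8 promoters already carried H3K4me3 at P7, and 7 of them H3K27ac, the exception being Rnf121. Among all gained protein-coding promoters, 83.8% carried H3K4me3 and 44.5% H3K27ac at P7.

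The 6 strongest lost promoters were Glt8d2 (3.49 and 3.57 at P7), Mthfs, a folate enzyme (3.47 and 4.10), Fcrla (3.69 and 3.42), Tmem47 (3.16 and 4.10), Pnoc, the precursor of nociceptin (3.09 and 3.63), and Fndc9 (3.47 and 3.07). Of these, only Mthfs and Tmem47 carried H3K4me3, at both ages, where 62.5% of all lost protein-coding promoters did at each age. These 6 were picked for high fold enrichment, so standing above the medians of the P7 lists, 2.96 and 3.04, follows from the choice. The 40 lost protein-coding genes together had medians of 2.72 and 2.90, below those of the lists. Mthfs and Tmem47 in replicate 2 were above the 95th percentile of both P7 lists, 4.01 and 4.05.

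Promoters marked by H3R2me2a at P14 carried H3K4me3, the mark it is known to oppose, more often than never marked promoters. Among protein-coding genes, H3K4me3 was present in both P7 lists at 92.1% of kept, 83.8% of gained, 62.5% of lost and 15.8% of never marked promoters, against 60.7% of all, and at 88.1% of those in 1 P7 list and both P14 lists. H3K27ac, a mark of active promoters and enhancers, was present at P7 at 62.7% of kept and 44.5% of gained promoters, against 30.9% of all. At P14 it was present at 80.7% and 70.1%, against 48.9% of all. H3K4me3 at gained promoters was thus mostly in place before H3R2me2a was called there, at 83.8% at P7 and 87.6% at P14. Counted the other way, of 13015 promoters with H3K4me3 at both ages, 34.3% and 33.8% held H3R2me2a in the P7 lists and 81.5% and 84.4% in the P14 lists. Of 7796 promoters with H3K4me3 at neither age, 7.79% and 8.21% held it at P7 and 19.3% and 23.1% at P14. Promoters with H3K4me3 at P14 only, 831 genes, went from 22.7% and 22.9% to 63.7% and 66.7%. Over all peaks, 17.6% and 14.4% overlapped H3K4me3 of the same age at P7 and 26.9% and 24.3% at P14. A peak in both marks does not show that both lay on the same nucleosome or in the same cell.

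**Figure D4:**
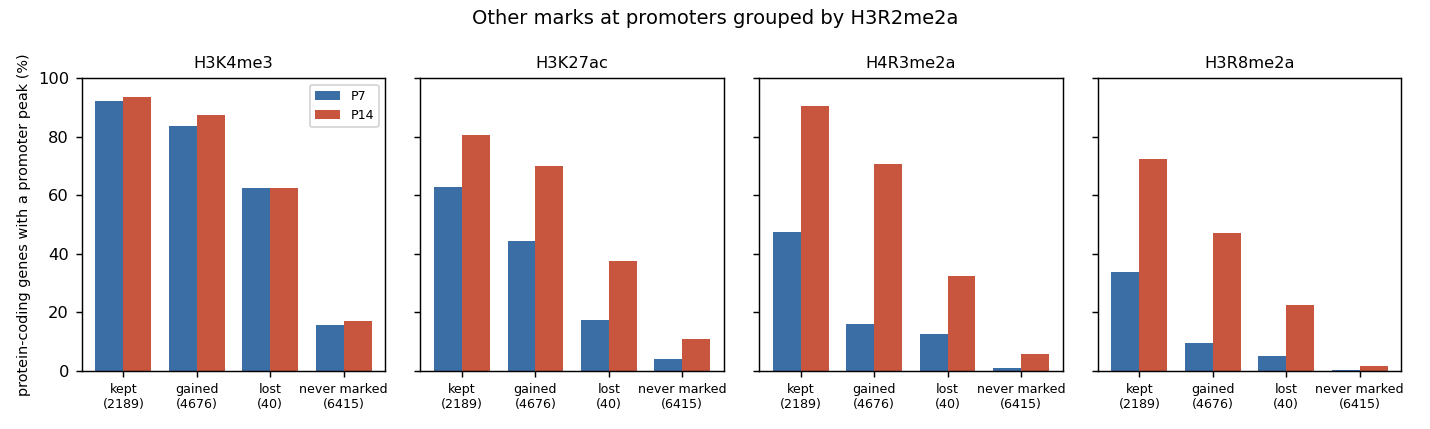
Share of protein-coding genes (%, y axis) with a promoter peak in at least 2 lists of H3K4me3, H3K27ac, H4R3me2a or H3R8me2a, 1 panel each, at P7 (blue) and P14 (red), for genes kept, gained, lost and never marked by H3R2me2a (numbers of genes in brackets). H3K4me3 stands at 83.8% of gained promoters at P7 and 87.6% at P14, while H4R3me2a goes from 15.9% to 70.7%.

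Among the enzymes of arginine methylation, all 9 genes of the list were marked at P14, against 51.3% of all protein-coding genes. Of all protein-coding genes only 0.182% were lost, so 0 lost in this list and those below was near that share. Kept were Prmt2 (3.62 and 4.36 at P7, 4.41 and 4.02 at P14) and Carm1 (3.33, 3.00, 3.51 and 4.10), the latter in a region held by every mark. The kept share was 22.2%, against 9.98% of all protein-coding genes, and 5 were gained (55.6%, against 21.3%). The strongest gained were Prmt9 (3.76 and 3.27), Prmt1 (3.13 and 3.65), the main type I enzyme of the cell, Prmt8 (2.65 and 3.18) and Prmt5 (2.60 and 3.24), which makes symmetric dimethylarginine. Prmt6, the writer of the mark itself (ENSMUSG00000049300.11, chromosome 3, 110246109 to 110250998), was absent from P7 replicate 1, stood at 3.76 in P7 replicate 2, and at 3.72 and 3.90 at P14. Its peak was 205 bp wide at P7 and 434 and 720 bp at P14. Of the 13 genes of the H3K4 methyltransferase complexes, which the mark is known to hinder, 4 were kept (30.8%, against 9.98% of all protein-coding genes), 6 gained (46.2%, against 21.3%) and 0 lost, and all 13 carried H3K4me3 at both ages, against 60.7% and 63.1% of all. The kept ones were Ash2l (2.91, 3.19, 3.00 and 2.94), Kmt2d (2.81, 3.11, 2.83 and 2.92), Dpy30 (3.19, 2.57, 3.18 and 3.70) and Kmt2b (2.94, 2.52, 2.78 and 3.52). Kmt2c (4.62 and 3.57), Kmt2a (3.46 and 3.28), Setd1a (3.24 and 3.65) and Wdr5 (3.06 and 3.03) led those gained.

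Of 41 genes of meiotic entry and prophase, 4 were kept (9.76%, near the 9.98% of all protein-coding genes), 14 gained (34.1%, against 21.3%) and 0 lost. Prdm9 had a fold enrichment of 4.21 and 3.57 at P7 and of 6.25 and 6.31 at P14, higher in both P14 lists. So was the fold of 48.6% of all kept protein-coding genes outside the regions held by every mark. Mnd1, a strand exchange factor, stood at 2.87 and 3.23 and then 2.85 and 4.13, and Spo11, which makes the meiotic double-strand breaks, at 2.36 and 3.11 and then 3.99 and 4.29. Gained genes were led by Ythdc2 (4.78 and 4.15), an RNA helicase of meiotic entry, Hormad2 (4.33 and 3.76), a protein of chromosome axes, Sycp1 (4.25 and 3.66) and Meioc (3.62 and 3.64). Of the 14 gained, 13 carried H3K4me3 at both ages and 1 at P14 only. H3K27ac was at both ages at 6 of them and at P14 only at 8. Over all gained protein-coding promoters, H3K4me3 stood at 83.8% at P7 and 87.6% at P14, and H3K27ac at 44.5% and 70.1%. Of the 41 promoters of the list, H3K4me3 stood at 27 at P7 and 39 at P14, and H3K27ac at 13 and 38. Among all protein-coding promoters the shares were 60.7% and 63.1% for H3K4me3 and 30.9% and 48.9% for H3K27ac.

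The PIWI and piRNA pathway, which silences transposons in germ cells, had 2 kept (10.5%, against 9.98% of all protein-coding genes), 9 gained (47.4%, against 21.3%) and 0 lost genes of 19. Exd1 (3.32, 3.22, 5.10 and 5.0) and Tdrd7 (3.202, 3.79, 4.17 and 5.42) were kept, with fold enrichments higher in both P14 lists. The same held at 48.6% of all kept protein-coding genes outside the regions held by every mark. The Tudor domain genes Tdrd5 (3.93 and 3.83), Tdrd12 (5.39 and 3.65) and Tdrd6 (3.52 and 3.66) and the helicase gene Mov10l1 (3.59 and 3.52) led those gained. Genes of pachytene and spermatid stages, which are used later, had 0 kept (against 9.98% of all protein-coding genes), 4 gained (13.3%, against 21.3%) and 0 lost of 30. Never marked were 15, where 29.2% of all protein-coding genes were. The 4 gained were Zpbp (4.78 and 4.88), a protein of the acrosome, Tcfl5 (4.38 and 3.19), Ccna1 (2.91 and 3.19), the meiotic A-type cyclin, and Gapdhs (2.70 and 2.52).

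Of 18 genes of spermatogonial stem cell (SSC) self-renewal and maintenance, 1 was kept (5.56%), 2 gained (11.1%) and 0 lost. The shares over all protein-coding genes were 9.98%, 21.3% and 0.182%. At P14, 8 of the 18 were marked (44.4%, against 51.3%). Etv5, a GDNF-responsive ETS factor, was kept, at 4.17 and 3.00 at P7 and 3.50 and 3.54 at P14, in a peak that was 249 and 219 bp wide at P7 and 585 and 750 bp at P14. Bmi1 (4.09 and 4.74) and Foxo1 (3.04 and 3.52) were gained. Among the other transcription factor genes inspected by the study, Id4 was in P7 replicate 1 (2.91) and both P14 lists (3.51 and 4.03), as were Taf4b (3.22, then 4.98 and 3.08), Sohlh2 (3.49, then 3.00 and 3.74) and Lhx1 (2.37, then 2.72 and 2.42). Pou3f1 was in 1 list of each age (2.67 and 2.14), Bcl6b only in P14 replicate 1 (2.63) and Pou5f1 only in P14 replicate 2 (2.08). At Taf4b, Sohlh2, Lhx1 and Pou3f1 the P7 peak lay at another place than the P14 peaks, so these folds do not follow a single peak. For Sohlh2 the peak spanned 55184340 to 55184539 in P7 replicate 1 and 55181678 to 55182502 in P14 replicate 1. At Id4 the peaks of both ages overlapped. Zbtb16, which encodes the stem cell factor PLZF, had no promoter peak in any of the 4 lists although H3K4me3 was present at both ages. Of 16 genes of spermatogonial differentiation, 3 were kept and 3 gained, 18.75% each, against 9.98% and 21.3% of all protein-coding genes. Dmrt1 (3.37, 2.91, 3.65 and 3.16), Ccnd2 (3.29, 3.19, 2.505 and 2.80) and Neurog3 (2.33, 2.85, 2.47 and 2.44) were kept, and Kitl (2.92 and 3.66), Dmrtb1 (2.96 and 2.62) and Stra8 (2.46 and 2.60), the retinoic acid target of meiotic entry, were gained.

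Genes with a general role in the cell were read as well. Of 20 genes of replication licensing and cell cycle, 18 were marked at P14 (90.0%, against 51.3% of all protein-coding genes), with 3 kept and 7 gained, against 9.98% and 21.3% of all. Mcm4 (3.61, 3.53, 4.67 and 6.05) and Mcm3 (3.36, 3.51, 6.10 and 4.54), both helicase subunits, and Aurkb (3.14, 3.65, 3.47 and 3.70) were kept, and Gins1 (5.43 and 4.62), Aurka (4.29 and 3.44), Mcm7 (3.39 and 3.42) and Ccnb1 (3.00 and 3.27) led those gained. Of 28 splicing factors of the SR and hnRNP families, 22 were marked at P14 (78.6%), with 5 kept (17.9%) and 11 gained (39.3%). Hnrnpf (3.40, 3.25, 3.49 and 4.02), Hnrnpk (4.09, 3.04, 4.01 and 5.51, in a region held by every mark), Hnrnpa2b1 (3.57, 3.00, 4.54 and 4.58) and Srsf7 (2.62, 3.198, 3.81 and 3.87) were the strongest kept, and Hnrnpa1 (6.15 and 4.80), Hnrnph1 (5.02 and 3.94), Hnrnpc (3.78 and 4.31) and the helicase Ddx5 (3.63 and 4.33) the strongest gained.

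The Hox genes, developmental regulators of the body axis, were marked as well. Of 39 genes, 4 were kept (10.3%, near the 9.98% of all protein-coding genes), 12 gained (30.8%, against 21.3%) and 0 lost, and 28 were marked at P14 (71.8%, against 51.3%). By cluster, 6 of 11 Hoxa, 7 of 10 Hoxb, 7 of 9 Hoxc and 8 of 9 Hoxd genes were marked at P14. Folds were low at Hoxc6 (2.66, 2.66, 2.49 and 2.53), Hoxc4 (2.99, 2.43, 2.74 and 2.96), Hoxb2 (2.37, 2.76, 2.70 and 2.93) and Hoxd11 (2.33, 3.01, 2.84 and 2.55), which were kept, and somewhat higher at Hoxd1 (3.67 and 3.71), Hoxd13 (3.31 and 3.44), Hoxb1 (3.27 and 3.74) and Hoxc13 (2.88 and 2.98), which were gained. H3K4me3 was at 17 of the 39 promoters at P7 and 26 at P14, but H3K27ac at 0 and 2, unlike the splicing factors, of which 28 carried H3K4me3 at both ages and 25 and 27 H3K27ac. Among all protein-coding promoters, 60.7% and 63.1% carried H3K4me3 and 30.9% and 48.9% H3K27ac at P7 and P14. Neighboring Hox genes share promoter windows, so their counts are not independent.

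**Figure D5:**
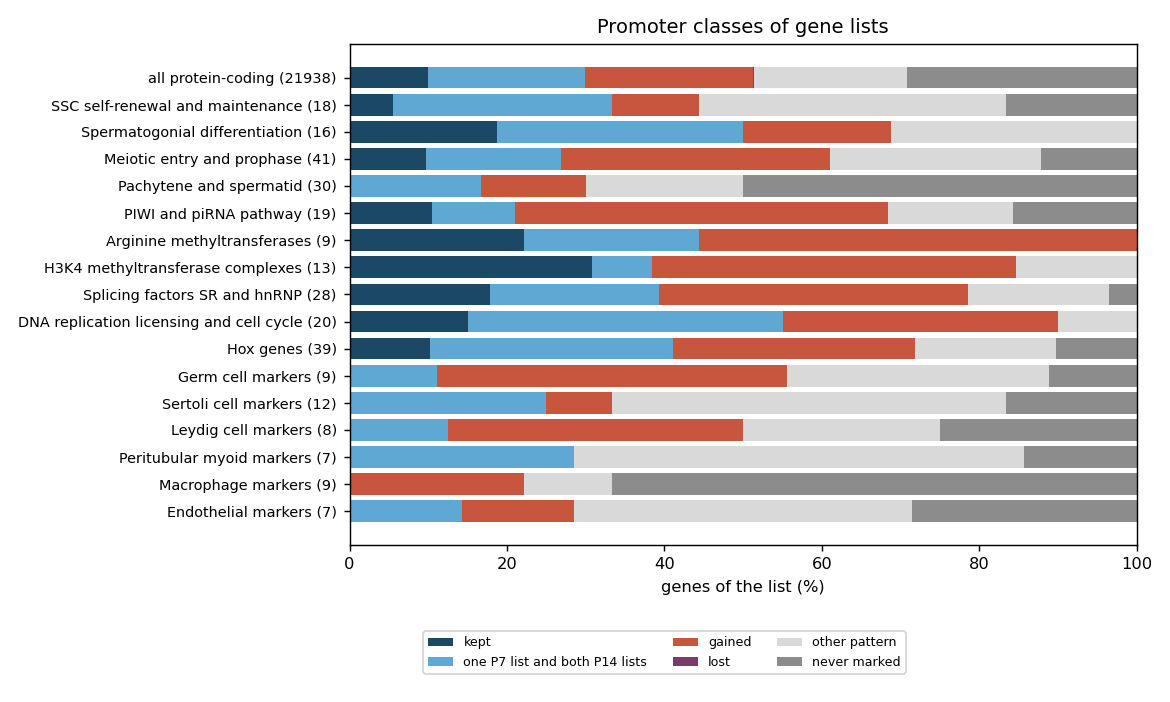
Share of the genes of each list (%, x axis) that were kept, in 1 P7 list and both P14 lists, gained, lost, in another pattern or never marked, with all protein-coding genes in the top bar and numbers of genes in brackets. Arginine methyltransferases are marked at P14 throughout, 9 of 9, and 15 of 30 pachytene and spermatid genes are never marked.

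Marker genes of the cell types the samples could hold were read in the same way. Of 9 germ cell markers, 4 were gained (44.4%, against 21.3% of all protein-coding genes) and 0 were marked at P7 (against 10.9%). The gained ones were Sycp3 (3.42 and 4.01), Ddx4 (3.98 and 3.42), Dazl (3.29 and 3.55) and Tex101 (3.06 and 3.596). Marked at P14 were 5 of these 9, 4 of 12 Sertoli cell markers, 4 of 8 Leydig cell markers, 2 of 7 peritubular myoid markers, 2 of 9 macrophage markers and 2 of 7 endothelial markers, where 51.3% of all protein-coding genes were, so the germ and Leydig cell shares were near that of all genes. Somatic genes gained were Inha (2.60 and 2.76) for Sertoli cells, Lhcgr (3.91 and 4.15), Hsd17b3 (2.75 and 2.48) and Nr5a1 (2.12 and 2.0) for Leydig cells, Cd14 (2.92 and 3.19) and C1qa (2.91 and 2.29) for macrophages and Pecam1 (2.63 and 2.59) for endothelium. H3K27ac, which follows activity more closely, stood at 4 germ cell markers at P7 and 7 at P14, and at 3 and 6 Sertoli, 2 and 4 Leydig, 1 and 2 myoid, 0 and 1 macrophage and 0 and 0 endothelial markers. H3K4me3 stood at 6 germ cell markers at P7 and 8 at P14, and at 11 and 10 Sertoli, 2 and 1 Leydig, 2 and 3 myoid, 1 and 1 macrophage and 2 and 2 endothelial markers. Among all protein-coding promoters, H3K27ac stood at 30.9% at P7 and 48.9% at P14, and H3K4me3 at 60.7% and 63.1%. Peak lists do not give the shares of these cells. The study reports a large excess of germ cells over somatic cells in the strained P7 suspension. The part of each cell type in the H3R2me2a peaks was not tested.

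RNA was measured at P7 only, by Smart-seq2 of sorted spermatogonia (2 libraries) and by bulk RNA-seq (3 libraries, given as spermatogonia in the labels and as whole testis in the methods of the study). The labels give these libraries as WT. In the study, sorted control cells came from Ddx4-GFP-CreERT2 males heterozygous for the Prmt1 lox allele. It describes the RNA samples as taken at P7 after 3 tamoxifen doses. Protein-coding genes kept or gained had far more RNA at P7 than never marked genes, although gained genes held no called peak at P7. Genes in another pattern of lists lay lower, with medians of 0.18 to 5.02 TPM. In the 5 libraries the median of kept genes was 11.5 to 21.7 TPM, that of gained genes 10.6 to 19.5 TPM and that of never marked genes 0 TPM in each. Lost genes, only 40, had medians of 0.255 and 1.07 TPM in Smart-seq2 and 7.29 to 9.23 TPM in bulk RNA-seq. At P7 the gained genes thus already had nearly the RNA of the kept genes, with a TPM of at least 1 in 67.5% to 82.4% of gained and 70.5% to 88.1% of kept genes. Prmt6 had 11.5 and 9.86 TPM in Smart-seq2 and 22.1 to 25.9 TPM in bulk RNA-seq. No RNA of P14 was analysed here, so whether the RNA of gained genes changed with the mark was not tested.

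Short motifs known from promoters were counted in the 300 bp around summits of promoter regions, on both strands. The GC box (GGGCGG) was found in 43.0% of regions seen throughout, 44.8% of those seen only at P14 and 10.2% of those seen only at P7, against 26.0% of all promoter regions. The ETS site (CCGGAAG) was found in 6.47%, 8.51% and 1.57%, against 5.04%, and the CCAAT box in 21.01%, 21.4% and 27.6%, against 25.2%. Around the annotated 5′ ends of the protein-coding genes, the median number of CpG in 300 bp was 24 for kept, 23 for gained, 12 for lost and 3 for never marked genes, against 14 for all. These matches describe the sequence under the summits, which at kept and gained promoters was the GC-rich, CpG-dense kind.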

How the data were processed

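Peaks were called by the authors in each CUT&Tag sample alone with MACS2 2.1.0 on mm10, at a p of 0.005 for H3R2me2a and a q of 0.05 for H3K4me3 as the peak names state. The deposited lists give for each peak its fold enrichment (a ratio of fragments to local background) and its p and q as −log10 values. The deposited RNA tables give TPM and FPKM per gene, as made by the authors. Library totals were not used, so depth was read from the background recovered from fold and p, matched within 0.005 of −log10 p.

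Promoters were windows of 3000 bp on either side of a start site in the annotation of the same build. Overlap meant at least 1 bp, and places, genes and overlaps used autosomes, X and Y. Age differences were tested with exact two-sided permutation tests of list values, and mark-by-age differences by exchanging marks within an age. The group of each list came from its labels. Another mark was present at a promoter when at least 2 of its lists held a summit there. Named genes were up to 4 kept, 4 gained and 2 lost per list, the 8 strongest kept, 8 gained and 6 lost, those of the 5 widest P14 promoter peaks, Prmt6, and factors the study inspected. A gene that this rule names is not reported here. The members and lists were chosen with earlier results of these data known. Scripts were tested on simulated data and run with Python 3.11.15, numpy 2.4.6, pandas 2.3.3, scipy 1.17.1, matplotlib 3.10.9 and samtools 1.23.1.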

Additional observations from a re-analysis of the deposited data

How the results depend on the processing

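The direction of the age difference held in peak number, peak width, promoter share and the log2 differences against other marks under every alternative run for them. The share on X reversed, by -0.594 percentage points with a q of at most 0.01 and by -1.12 with a fold enrichment of at least 4. The P14 to P7 difference in replicate overlap, 25.1 percentage points as reported, was 11.7 with a q of at most 0.01, 15.4 with overlap over 50% of both peaks and 15.4 with a fold enrichment of at least 4. With a q of at most 0.01, 183 genes were marked at P7, 8018 at P14, 167 kept and 0 lost, and the RNA median of gained over never marked genes was 23.6 TPM higher, against 15.7 as reported and 10.97 in FPKM. At equal list length 8459 genes were marked at P14, 3138 gained and 429 lost. With a promoter window of 1000 bp, 1854 genes were marked at P7, 1665 kept and 53 lost. With a fold enrichment of at least 4, a setting added after seeing the data, 98 were marked at P7, 1953 at P14, 76 kept, 1597 gained and 7 lost. Leaving out each list in turn gave peak ratios of 2.42 to 2.82, width differences of 44 to 49 bp, promoter differences of 5.03 to 7.92 and X differences of 0.233 to 0.418 percentage points, 3219 to 7893 genes at P7, 15546 to 20409 at P14, 2954 to 5803 kept, 9468 to 10452 gained and 228 to 986 lost, since a gene then needs 1 list of that age only. Leaving out a list, the log2 differences ran from 0.24 to 0.46 against H3R8me2a, 0.38 to 0.65 against H3K27ac and 0.80 to 1.02 against H3K4me3. Replicate overlap needs both replicates, so leaving one out gives no value. With the replicate block the peak ratio was 2.62, the width difference 46.5 bp, the promoter difference 6.47 and the X difference 0.325 percentage points, each with an exact p of 0.5, the smallest that the paired design allows. Same-numbered lists did not deviate together (correlation 0.0118 over 21938 protein-coding genes). The P7 replicates shared few peaks, so this value cannot decide whether the numbers pair the samples. Of 133 alternative values, 2 reversed, 29 moved beyond the replicate spread or by over 1.5 times for counts, and 102 did neither. For tested values the last group means only the same direction, and it includes large moves. It also includes values that could not differ. Merging sub-peaks changed no value, and the replicate block reused the reported ones. Leaving out a list of an age kept the gene count of the other age. With a q of at most 0.01 the peak ratio was 11.1, the promoter difference 17.5 percentage points and the log2 differences 1.77, 1.63 and 3.00 against H3R8me2a, H3K27ac and H3K4me3. With a fold enrichment of at least 4 the width difference was 210.8 bp and the promoter difference 37.0, and at equal list length they were 128.5 bp and 20 percentage points. With 2 lists an age no exact test could pass 0.05, and library depth is known only through the recovered background.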

Other observations

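Other arginine marks were also called at more of the promoters gained by H3R2me2a at P14 than at P7. H4R3me2a, the mark written by Prmt1, stood at 15.9% of the 4676 gained protein-coding promoters at P7 and 70.7% at P14, H3R8me2a at 9.37% and 47.1%, H4R3me1 at 10.3% and 39.7%, and H4R3me2s, the symmetric form written by Prmt5, at 22.8% and 48.4%. Over all protein-coding promoters H4R3me2a went from 15.3% to 49.0% H3R8me2a from 9.67% to 33.0%, H4R3me1 from 10.8% to 29.9% and H4R3me2s from 17.7% to 34.2%, so the share was higher at P14 over all promoters too. No test of the difference between marks was run at single promoters.

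Of all annotated genes in each class, 77.4% of the kept, 68.0% of the gained and 38.8% of the lost were protein-coding, against 21.4% of the never marked and 21938 of all 55413 annotated genes, near which the lost genes lay. Among the 6875 gained genes, 417 were lincRNA genes and 426 antisense genes.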
